A study of Homo sapiens with 4 samples.

Results

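The prostaglandin and lipoxygenase pathway was followed in A549 cells through 10 genes, taken by name from the count tables: PLA2G4A, PTGS1, PTGS2, PTGES, PTGES2, PTGES3, HPGD, PTGER4, ALOX5 and ALOX15. All 10 were found once among the 50868 genes counted. A549 is a human lung adenocarcinoma cell line. RNA was sequenced from control A549 cells (2 libraries) and from A549 cells overexpressing the deubiquitinase USP12 (2 libraries). In the study, constructs of USP12 were carried by lentiviral pLVX vectors and the control is described as an empty vector, while no label says whether a line is 1 clone or whether the replicates came from separate cultures, so that the p-values measure only the spread between these libraries. The comparison asked which genes differ when USP12 is raised in lung tumour cells.

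Eicosanoid synthesis starts when cytosolic phospholipase A2 (PLA2G4A) frees arachidonic acid from membrane lipids. The cyclooxygenases (PTGS1 and PTGS2) turn it into prostaglandin H2, the prostaglandin E synthases (PTGES, PTGES2 and PTGES3) turn that into prostaglandin E2, receptors such as PTGER4 read it at the cell surface, and 15-hydroxyprostaglandin dehydrogenase (HPGD) inactivates it. Arachidonic acid also feeds the lipoxygenases ALOX5, which opens the route to leukotrienes, and ALOX15. A549 cells are known as a model of inducible PTGS2 and PTGES expression.

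The libraries held between 14280081 and 16305356 counts, fragments assigned to genes. Levels are given as CPM, a count scaled to library size with TMM factors, on which scale 3 counts, taken as the floor, correspond to between 0.166 and 0.227 CPM; this covers counting error only. USP12 itself had 15.2 and 34.4 CPM in control cells, against 1745 and 2235 CPM in USP12 cells. The control libraries stood apart from each other: over the 15222 genes tested, their log2 ratio had an SD of 1.32, against 0.62 for that of the USP12 libraries. For a USP12 library against a control library, the SD was between 1.01 and 1.31. The control libraries were thus at least as far from each other as from the USP12 libraries, which limits every fold change below. The column heading of control replicate 1 also carries a different date-like prefix from the other 3, and the part of that difference in any result was not tested. The log2 fold changes of the tested members, other than ALOX15, are therefore given also against each control library alone. The 5 epithelial markers EPCAM, CDH1, KRT8, KRT18 and KRT19 were all detected, with a summed level of 9638 and 5060 CPM in control cells, against 4275 and 3976 CPM in USP12 cells. That sum, mostly KRT8 and KRT18, was thus lower in both USP12 libraries, and its part in the results was not tested. CDH1 had 130 and 99.1 CPM in control cells, against 76.5 and 134 CPM in USP12 cells, so that its groups overlapped. The other epithelial markers were each lower in both USP12 libraries.

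Of the 10 members, 8 had a promoter entry in RefSeq (GRCh38.p14). The 250 bases before the start site are shown for PTGS2 and PLA2G4A, which lie 148 kb apart on chromosome 1 and both had their lowest levels in the USP12 libraries, and for HPGD, the member with higher levels there. They read 5′ to 3′ on the strand of the gene, at chr1:186680424-186680673 (minus strand), chr1:186828699-186828948 (plus strand) and chr4:174522489-174522738 (minus strand, the first of 2 HPGD windows). The start sites are those of RefSeq. For PTGS2 and HPGD they differ from the GENCODE gene positions given further below, and the windows shown lie within those positions. The first HPGD window is the one at the lower coordinates. Capitals mark matches on either strand to 4 short patterns of promoters. The TATA box was searched for as TATAAA. The core of a cAMP response element, bound by CREB and its relatives, was taken as TGACG. The GC box, known as a binding pattern of SP1, was taken as GGGCGG. The last pattern was the box that NF-Y binds, CCAAT.
PTGS2: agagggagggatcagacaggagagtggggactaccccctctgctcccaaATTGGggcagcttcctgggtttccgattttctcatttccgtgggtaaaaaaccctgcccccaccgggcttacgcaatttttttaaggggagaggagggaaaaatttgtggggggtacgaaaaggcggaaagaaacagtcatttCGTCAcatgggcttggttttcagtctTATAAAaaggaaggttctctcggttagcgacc
PLA2G4A: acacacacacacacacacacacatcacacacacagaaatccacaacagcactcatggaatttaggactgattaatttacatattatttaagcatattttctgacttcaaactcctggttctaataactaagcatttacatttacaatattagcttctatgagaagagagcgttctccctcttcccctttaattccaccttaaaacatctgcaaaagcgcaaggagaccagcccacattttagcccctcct
HPGD: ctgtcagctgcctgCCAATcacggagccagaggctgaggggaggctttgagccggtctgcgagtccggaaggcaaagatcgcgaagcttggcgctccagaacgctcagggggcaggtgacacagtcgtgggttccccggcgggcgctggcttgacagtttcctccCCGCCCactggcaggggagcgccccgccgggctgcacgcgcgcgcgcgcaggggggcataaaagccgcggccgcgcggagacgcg
The PTGS2 window held a TATA box 32 bases before the start site, a match to the core of a cAMP response element 58 bases before it and a CCAAT box. Over all 35116 RefSeq windows of this length, the TATA box was found in 10.7%, the cAMP response element core in 21.2%, the CCAAT box in 32.0% and the GC box in 42.6%. The neighbouring PLA2G4A window held none of these letters, and the HPGD window shown had a CCAAT box and a GC box. The second HPGD window, not shown, held neither of these, but a match to the core of a cAMP response element 77 bases before its start site. A match describes the letters and not a bound site.

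None of the members passed an adjusted p of 0.05 in edgeR's quasi-likelihood test (0 lower and 0 higher, against 0.0% of all tested genes in each direction), while 2 of the 9 members tested, ALOX5 and ALOX15, had an unadjusted p under 0.05, as did 7.59% of all tested genes. Both passed an adjusted p of 0.05 with the DESeq2 Wald test and the edgeR exact test, in which 1.79% and 1.72% of all tested genes were lower at that threshold. With control replicate 1 left out, 3 members were lower and 2 higher, against 5.89% and 4.93% of all tested genes. With control replicate 2 left out, 4 were lower and 1 higher, against 16.7% and 16.3%. These 2 fits keep 1 control library each and take their spread from the USP12 pair alone. Their calls therefore take no account of how far the control libraries differ. PTGES was among the higher members without control replicate 1 (log2 fold change 0.97) and among the lower without control replicate 2 (-0.69). In the fit of all libraries, the 2 members ALOX5 and ALOX15 met a criterion that 4.41% of all tested genes met. It was an unadjusted p of 0.05 or less together with a log2 fold change no higher than -1. No member met the mirrored criterion, which 2.92% of genes met. Both USP12 libraries lay below both control libraries in 5 members (PLA2G4A, PTGS2, PTGES2, ALOX5 and ALOX15), against 17.0% of all tested genes, and above them in 1 (HPGD), against 19.5%. With 2 libraries a group, the smallest p that exact permutation allows for a single gene is 0.333. The median log2 fold change of the 9 members was -0.41. Setting ALOX15 at the bound that its counts of 0 allow cannot change this, since ALOX15 stays below the median. The median of all tested genes was -0.06. The members were chosen with earlier results of these data known, so the shares of all tested genes stand beside their counts as description only.

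**Figure D1:**
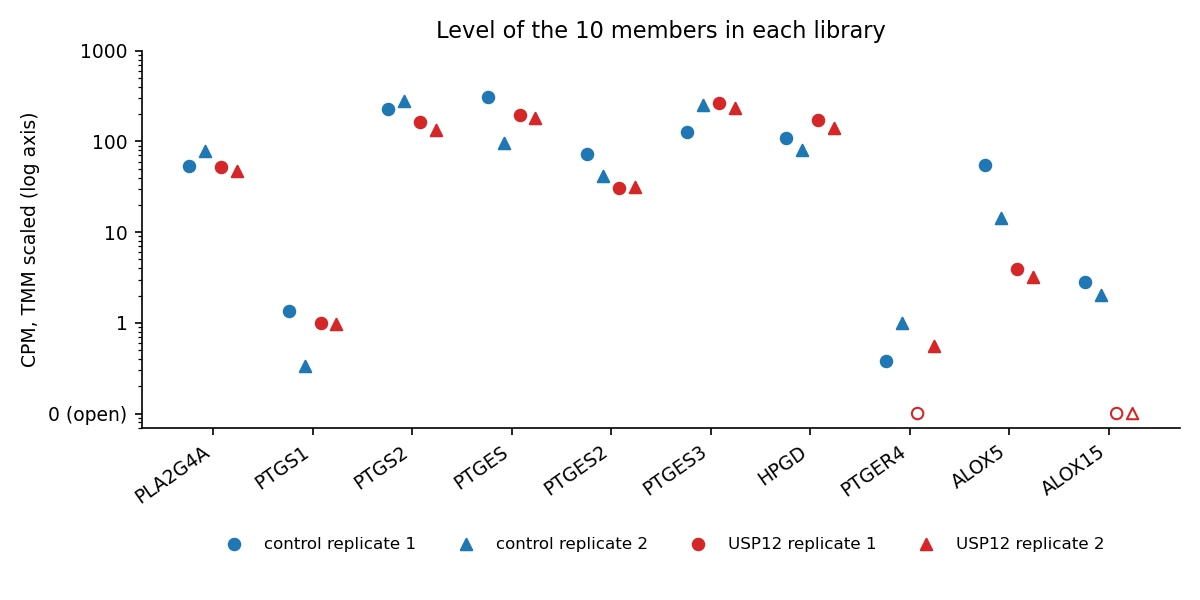
Level of each member in each library, in CPM scaled by TMM on a log axis, with control libraries in blue and USP12 libraries in red; open symbols are counts of 0. The lipoxygenases ALOX5 and ALOX15 show the widest gap between the groups, while for PTGES, PTGES3, PTGS1 and PTGER4 the groups overlap.

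Levels of different genes were compared per kilobase of the canonical transcript. PTGES3 and PTGES led, with a mean over the 4 libraries of 115.9 and 111.9 CPM per kb. They were followed by HPGD at 48.0, PTGS2 at 44.7, PTGES2 at 27.6 and PLA2G4A at 20.0 CPM per kb. ALOX5 had 7.55 CPM per kb, ALOX15 0.450, PTGS1 0.183 and PTGER4 0.141. In this order, the ranges over the 4 libraries of neighbouring genes overlapped, with the exception of ALOX5 and ALOX15. Of the cyclooxygenases, PTGS2 and not PTGS1 carried nearly all transcripts in all 4 libraries.

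PLA2G4A (ENSG00000116711, chromosome 1, 186828949 to 186988981, plus strand) encodes the calcium-dependent phospholipase that supplies arachidonic acid. It had 53.8 and 77.6 CPM in control replicates 1 and 2, and 51.8 and 47.0 CPM in USP12 replicates 1 and 2. The USP12 libraries were the lowest, but USP12 replicate 1 lay close to control replicate 1. The log2 fold change was -0.41 (standard error, SE, 0.39; adjusted p of 0.929 by edgeR), smaller than the difference of 0.53 between the control libraries. It was -0.11 against control replicate 1 alone and -0.65 against control replicate 2 alone.

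PTGS2 (ENSG00000073756, chromosome 1, 186671791 to 186680922, minus strand), the inducible cyclooxygenase-2, had 228 and 281 CPM in the control libraries. In the USP12 libraries it had 162 and 135 CPM. Both were below both controls, with a gap between the groups that exceeded the distance within either one. USP12 cells differed from control cells by a log2 fold change of -0.78 (SE 0.35, with an adjusted p of 0.712), with a log2 difference of 0.30 between the control libraries. It was -0.61 against control replicate 1 alone and -0.92 against control replicate 2 alone. PACERR, a long noncoding RNA that overlaps the start of PTGS2 on the opposite strand over a small part of its length, had 0 and 9 counts in control cells, against 20 and 17 in USP12 cells. Its unadjusted p was 0.128, and as it is not stated whether the counting used strand, reads from the stretch that both share cannot be told apart. PACERR was named after its values were seen.

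PTGS1 (ENSG00000095303, chromosome 9, 122370530 to 122395703, plus strand), the constitutive cyclooxygenase, was close to the limit of detection. It had 18 and 6 counts in control cells, against 14 in each of the USP12 libraries. The groups overlapped, and the log2 fold change of 0.24 (SE 0.94, with an adjusted p of 0.982) turned from -0.45 against control replicate 1 alone to 1.55 against control replicate 2 alone. Per unit length, PTGS2 was between 155 and 941 times as abundant as PTGS1 in the 4 libraries, the highest value being that of control replicate 2, where PTGS1 had 6 counts.

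**Figure D2:**
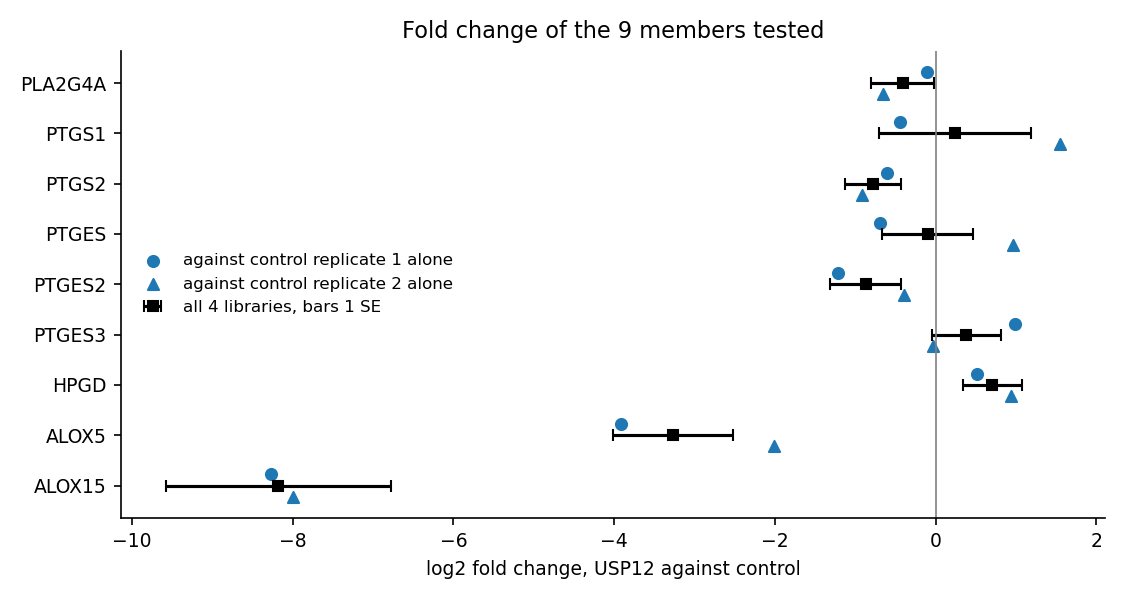
Log2 fold change of the 9 members tested, USP12 against control, with squares and bars for the fit of all 4 libraries and 1 standard error, circles for control replicate 1 alone and triangles for control replicate 2 alone. PTGES, PTGS1 and PTGES3 lie on opposite sides of 0 depending on the control library, and the fitted value of ALOX15 rests on counts of 0 and is no bound.

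The 3 prostaglandin E synthases differed from each other in how they varied. PTGES (ENSG00000148344, chromosome 9, 129738331 to 129753042, minus strand) is the inducible microsomal enzyme that is usually coupled to PTGS2. It had 308 and 97.0 CPM in control cells, against 197 and 182 CPM in USP12 cells, which lay between the controls. The log2 fold change was -0.09 (SE 0.57, with an adjusted p of 0.986). Against control replicate 1 alone it was -0.69 and against control replicate 2 alone 0.97, so that its direction differed with the control library used.

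PTGES2 (ENSG00000148334, chromosome 9, 128120693 to 128128462, minus strand), a membrane-associated synthase, had 73.1 and 41.2 CPM in the control libraries. In USP12 cells it had 30.8 and 31.7 CPM, both below both controls. This gave a log2 fold change of -0.87 (SE 0.44, with an adjusted p of 0.789), about as large as the difference of -0.83 from control replicate 1 to control replicate 2. It was -1.22 against the first of these alone and -0.40 against the second alone.

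PTGES3 (ENSG00000110958, chromosome 12, 56663341 to 56688408, minus strand), also known as p23, a co-chaperone of HSP90, had 127 and 255 CPM in the control libraries. Its 266 and 232 CPM in the USP12 libraries were close to control replicate 2. The log2 fold change was 0.38 (SE 0.43, with an adjusted p of 0.942), and it was 0.98 against control replicate 1 alone and -0.03 against control replicate 2 alone. Its processed pseudogene PTGES3P1 had between 158 and 421 counts, and since uniquely mapped fragments were counted, the split of reads between PTGES3 and its near-identical copies is uncertain.

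Within a library, shares need no scaling between libraries. Of the summed level per length of the 3 synthases, PTGES made up 60.9% and 25.7% in control replicates 1 and 2, against 41.3% and 42.3% with USP12. PTGES2 made up 15.9% and 12.0% in control cells, against 7.10% and 8.05% in USP12 cells. The rest was PTGES3. The share of PTGES2 was the only one of the 3 in which the groups did not overlap.

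HPGD (ENSG00000164120, chromosome 4, 174490175 to 174523154, minus strand), which inactivates prostaglandin E2, had 110 and 81.3 CPM in the control libraries. In USP12 cells it had 171 and 141 CPM, both above both controls. For HPGD the log2 fold change was 0.71 (SE 0.37, with an adjusted p of 0.796), with a difference of -0.43 from control replicate 1 to control replicate 2. It was 0.52 against control replicate 1 alone and 0.94 against control replicate 2 alone. An unnamed gene overlaps HPGD on the opposite strand. The ratio of PTGS2 counts to HPGD counts, a comparison chosen after the values were seen, was 2.08 and 3.46 in the control libraries, then 0.947 and 0.958 in those with USP12. As PTGS2 was lower and HPGD higher in both USP12 libraries, the ratio had to be below that of either control there. It adds nothing to the values of the single genes. PTGS2 and HPGD were thus on opposite sides in their point estimates, with neither gene past the test.

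**Figure D3:**
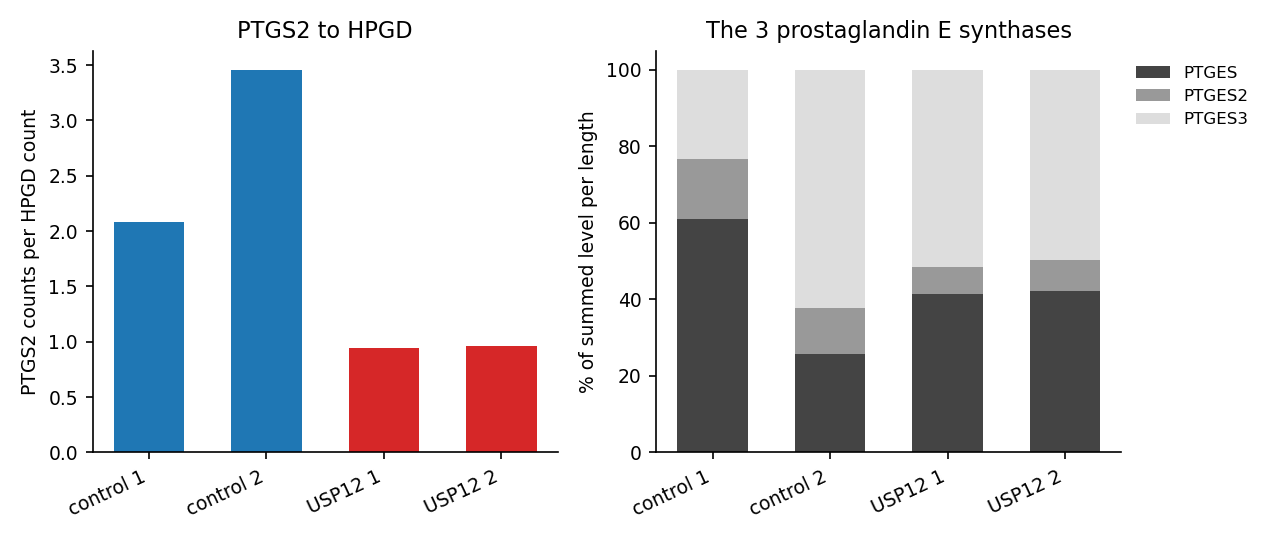
Left, PTGS2 counts per HPGD count in each library, from 0.947 in USP12 replicate 1 to 3.46 in control replicate 2. Right, the share in % of each of the 3 prostaglandin E synthases in their summed level per length, in which PTGES ranges from 25.7% to 60.9% between the control libraries.

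PTGER4 (ENSG00000171522, chromosome 5, 40679915 to 40693735, plus strand), a receptor of prostaglandin E2 that raises cAMP, had 5 and 18 counts in control cells, against 0 and 8 in USP12 cells. The groups overlapped, and its counts were too low for the filter, so that it was not tested. TTC33 overlaps it on the opposite strand. PTGER2, the other receptor of prostaglandin E2 that raises cAMP, was tested. It had 1.51 and 2.00 CPM in control cells, against 5.47 and 3.26 CPM in USP12 cells (log2 fold change 1.31, SE 0.63, adjusted p 0.762). PTGER1 had at most 6 counts in a library and PTGER3 at most 1.

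ALOX5 (ENSG00000012779, chromosome 10, 45374176 to 45446119, plus strand), the 5-lipoxygenase that makes the precursor of leukotrienes, had 720 and 260 counts in control cells, against 55 and 46 in USP12 cells. This corresponds to 54.5 and 14.4 CPM, then 3.96 and 3.19 CPM. Both USP12 libraries were far below the lower control. The log2 fold change was -3.27 (SE 0.75, unadjusted p = 0.00447, adjusted p = 0.298, edgeR). Over the alternatives that kept all 4 libraries, the adjusted p ranged from 8.03e-05 to 0.347. The lowest came from the quasi-likelihood test without a low-count filter. That fit, and the one with replicate number as a block, used no spread of the single gene. The control libraries differed by -1.91 on the log2 scale from replicate 1 to replicate 2, and the log2 fold change was -3.92 against control replicate 1 alone and -2.01 against control replicate 2 alone. An unnamed gene lies over ALOX5 on the opposite strand.

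ALOX15 (ENSG00000161905, chromosome 17, 4630919 to 4642294, minus strand), the 15-lipoxygenase, had 37 counts in each of the control libraries and 0 in each of the USP12 libraries. The control levels were 2.80 and 2.05 CPM. With the USP12 libraries set at the floor of 3 counts each, ALOX15 was at least 11.4-fold lower than the mean of the control libraries. Against control replicate 2 alone, the lower of them, that bound is smaller. By the edgeR test, the unadjusted p was 0.00189 and the adjusted p 0.221. The adjusted p ranged from 0.000127 to 0.247 over the alternatives that kept all 4 libraries and tested the gene. Unlike ALOX5, its control libraries were close to each other, with a log2 difference of -0.43.

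Since ALOX5 and ALOX15 are best known from leukocytes, and ALOX15 also from eosinophils and airway epithelium, the markers of such cells were read in the same libraries. The 6 markers of mast cells and eosinophils (KIT, CPA3, TPSAB1, TPSB2, MS4A2 and CLC) were at 0 counts in all 4 libraries. Of the leukocyte markers, CD3E was at 0 in all 4 libraries and PTPRC, the pan-leukocyte marker CD45, had at most 1 count. The summed level of the leukocyte markers was 123 and 55.4 CPM in control cells, against 78.5 and 61.9 CPM in USP12 cells, mostly CD68 and CD14. The sums of the groups overlapped, although LYZ and ITGAM, 2 of the 4 leukocyte markers tested, were lower in both USP12 libraries. The 5 fibroblast markers summed to 18.0 and 2.83 CPM, then 20.9 and 16.7 CPM, so that the groups overlapped. Among them DCN was at 0, while COL1A1 (13.0 and 2.60 CPM, then 18.9 and 14.6 CPM) and PDGFRB (0 counts in both controls, then 6 and 11) were higher in both USP12 libraries. The 3 endothelial markers had a summed level of 15.4 and 8.59 CPM in control cells, against 0.432 and 1.32 CPM in USP12 cells. VWF had at most 3 counts, while PECAM1 had 68 and 56 counts, then 4 and 14, and CDH5 136 and 96, then 2 and 5. The endothelial sum, LYZ and ITGAM were lower in both USP12 libraries, as were ALOX5 and ALOX15. LYZ had 11 and 27 counts in control cells, against 1 and 3 in USP12 cells. ITGAM had 10.8 and 2.38 CPM, then 1.66 and 2.15 CPM, close to control replicate 2. The part of these markers in the lipoxygenase values was not tested. In bulk RNA, fewer expressing cells and less RNA per cell cannot be told apart.

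For ALOX15, the tested member with the largest fitted change, the 3 genes of most similar profile were sought among the 14328 tested genes with a mean of 1 CPM or more. They were PARM1, SLPI, a secreted protease inhibitor, and LGALS4, an epithelial galectin. Their Euclidean distances in centred log2 CPM over the 4 libraries were 0.287, 0.329 and 0.447. PARM1 had 108 and 105 CPM, then 5.76 and 5.19 CPM. LGALS4 had 8.47 and 8.42 CPM in control cells, against 0.432 and 0.277 CPM in USP12 cells. SLPI had 282 and 154 CPM, then 11.7 and 11.4 CPM. As ALOX15 had 0 counts in both USP12 libraries, the size of its drop in log2 CPM depends on the prior count of 2. Which genes are nearest in size of change depends on it too. Likeness over 4 libraries is a description only.

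The other genes of the pathway were taken from a list of 58, of which 30 were tested and 17 had no count in any library. At an adjusted p under 0.05 the edgeR test called 0 of them in either direction, and 5 had an unadjusted p under 0.05. Those 5 met the criterion of lower levels, as did 4.41% of all tested genes, and none met that of higher levels, met by 2.92%. With USP12 replicate 1 or 2 left out, 0 met the criterion of lower levels, against 1.8% and 2.17% of all tested genes. With control replicate 1 or 2 left out, 5 and 6 did, against 7.97% and 13.5%. Each of these fits keeps 1 library in a group, so its calls take no spread from that group. With all libraries kept, the groups did not overlap in 15 of the 30 tested genes, against 36.5% of all tested genes. Of the 15, 7 were lower (17.0% of all) and 8 higher (19.5% of all) in the USP12 libraries. The median log2 fold change of the 30 genes was -0.03. This list and its classes were also chosen with earlier results known, so the shares beside their counts are description only.

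**Figure D4:**
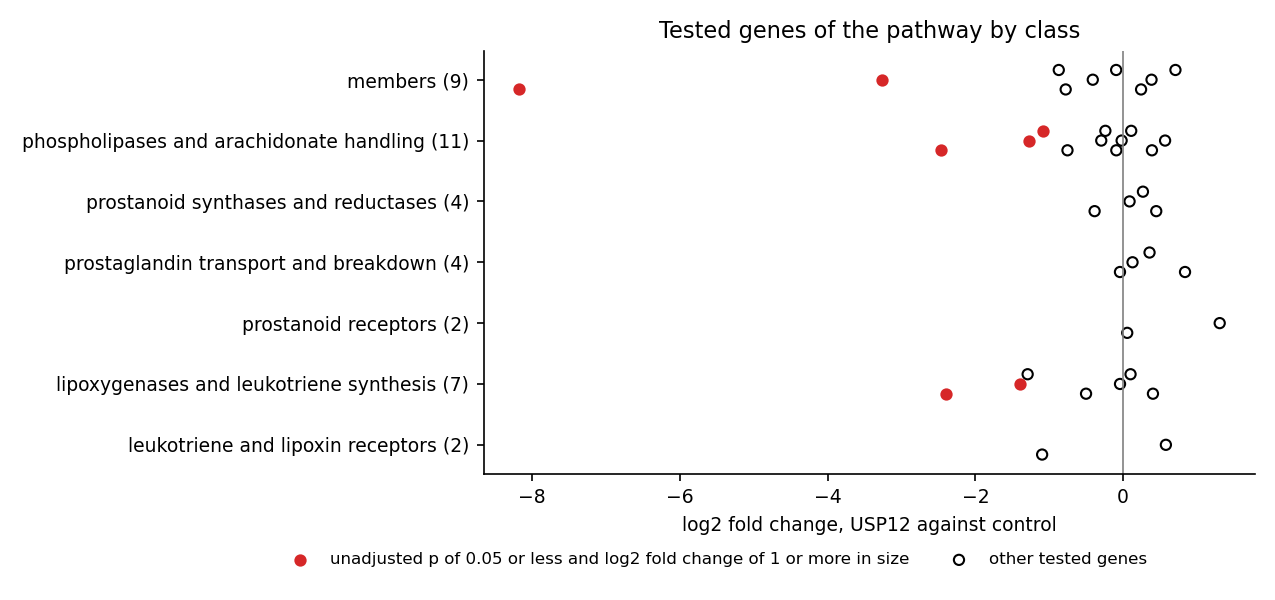
Log2 fold change, USP12 against control, of the 9 members tested and the 30 other tested genes of the pathway, by class with the number of genes in brackets; filled red points met an unadjusted p of 0.05 or less with a log2 fold change of 1 or more in size. The 7 red points all lie below 0, among the members, the phospholipase class and the lipoxygenase class.

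In the class of phospholipases and arachidonate handling, 3 of 11 tested genes met the criterion of lower levels, which 4.41% of all tested genes met. PLAAT3, a phospholipase of adipose tissue that is listed under its older symbol PLA2G16, had 111 and 82.5 CPM in control cells, against 32.0 and 47.7 CPM in USP12 cells (log2 fold change -1.28, SE 0.41, adjusted p 0.471). LPCAT3, which puts arachidonate back into phospholipids, had 295 and 181 CPM, then 122 and 103 CPM (log2 fold change -1.08, SE 0.39, adjusted p 0.564). With control replicate 1 left out, LPCAT3 stood at -0.69. PLA2G4B, a paralog of PLA2G4A, had 15 and 30 counts in control cells, against 3 and 4 in USP12 cells, and it overlaps the read-through gene JMJD7-PLA2G4B on its strand, so that its counts are uncertain. ANXA1, an inhibitor of phospholipase A2, had 228 and 309 CPM in control cells, against 410 and 385 CPM in USP12 cells (log2 fold change 0.57, adjusted p = 0.846). PLA2G6 was also higher in both USP12 libraries, with a log2 fold change of 0.39 (adjusted p = 0.945).

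In prostaglandin transport and breakdown, 0 of 4 tested genes met the criterion. ABCC4, which exports prostaglandins, had 44.1 and 71.4 CPM in control cells, against 94.9 and 112 CPM in USP12 cells. Its log2 fold change was 0.84 (SE 0.40, with an adjusted p of 0.761). PTGR1, a reductase that acts after HPGD, had 165 and 107 CPM, then 176 and 171 CPM. The import carrier SLCO2A1 had at most 2 counts. The 4 tested prostanoid synthases and reductases had overlapping groups.

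In the lipoxygenase and leukotriene class, 2 of 7 tested genes met the criterion of lower levels (4.41% of all tested genes). EPHX2, the soluble epoxide hydrolase, was placed in this class though it is neither a lipoxygenase nor a leukotriene-forming enzyme. It had 26.0 and 24.1 CPM in the control libraries, which were close to each other. In the cells with USP12 it had 9.72 and 9.35 CPM. Its log2 fold change of -1.39 (SE 0.43, with an adjusted p of 0.438) was between -1.44 and -1.34 with each library left out in turn. GGT5, which converts leukotriene C4 to D4, had 5.45 and 3.99 CPM, then 1.22 and 0.554 CPM (log2 fold change -2.40, SE 0.71, adjusted p 0.426). ALOX12B, an epidermal lipoxygenase, had 4.77 and 2.05 CPM in control cells, against 1.73 and 1.04 CPM in USP12 cells (adjusted p = 0.834). LTA4H, which makes leukotriene B4, had 131 and 89.4 CPM, then 155 and 136 CPM, and MGST2 differed by 0.10 on the log2 scale. ALOX5AP, the membrane protein that presents arachidonic acid to ALOX5, had 0 counts in both control libraries, against 11 and 4 in USP12 cells, and was not tested. LTC4S, the leukotriene C4 synthase, had no count.

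Of the receptors of leukotrienes and lipoxins, LTB4R had 10.1 and 12.7 CPM in control cells, against 14.9 and 19.2 CPM in USP12 cells. LTB4R2, the low-affinity receptor of leukotriene B4, had 3.03 and 4.65 CPM, then 1.51 and 2.08 CPM. Neither passed the test, with adjusted p = 0.902 and 0.835. LTB4R and LTB4R2 overlap on the same strand, and LTB4R2 also overlaps NOP9 on it, so that the counts of both receptors are uncertain. CYSLTR1, CYSLTR2, OXER1 and FPR2 had no count in any library.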

How the data were processed

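The authors used Seqtk to trim adaptors and filter out ribosomal RNA, aligned to GRCh38 by means of HISAT2 2.0.4 and took fragment counts per gene, from unique mappings only, with StringTie 1.3.0. The deposited values are raw counts per gene, 1 table per library. The library kit was stranded, but which annotation was counted, and whether strand was used, is not given in the sources used here, so overlapping and antisense genes are uncertain.

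Groups and replicate numbers came from the sample titles. Testing used edgeR 4.0.16 in R 4.3.3 (filterByExpr, TMM, quasi-likelihood test, Benjamini-Hochberg adjustment over the 15222 genes tested). The code was tried on simulated data in which all genes had the same dispersion and the control libraries the same means. That trial does not cover control libraries that stand apart as they do here. Standard errors are approximate and were derived from each log2 fold change and its F statistic. Log2 CPM used a prior count of 2. For these genes, positions and canonical transcript lengths came from GENCODE release 44 (GRCh38), which holds the identifiers of 99.2% of them. Counts set the precision: genes under 10 counts in a library lie near the floor of 3.

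The alternatives were DESeq2 1.42.0 size factors and Wald test, testing without the low-count filter, a minimum of 10 counts in each library, the edgeR exact test, the replicate block and leaving out each library, and, added after the data had been seen, the quasi-likelihood test with legacy = FALSE. Named were the 10 members, USP12, up to 15 pathway genes with the smallest p among those whose groups did not overlap, those past the unadjusted criterion, and the 3 genes most like the member with the largest change. The members and lists were chosen with earlier results of these data known. The value of 1 marker gene is not reported here.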

Additional observations from a re-analysis of the deposited data

How the results depend on the processing

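Fits without a filter, with the replicate block, and without either USP12 library had infinite prior degrees of freedom (4.15 in the reported fit), so their calls use no spread of the single gene, and fits without a control library take the spread from the USP12 pair alone. The direction of ALOX5, ALOX15, PTGS2, PTGES2, PLA2G4A, HPGD and USP12 was the same in all alternatives run. With at least 10 counts in every library, PTGS1 and ALOX15 were not tested.

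Among the fits that kept all 4 libraries, ALOX5 passed an adjusted p of 0.05 in 4, at -3.24 when unfiltered, -3.30 by DESeq2, -3.27 by the edgeR exact test and -2.98 with the replicate block. ALOX15 passed in the same 4 (-8.17, -7.57, -8.18 and -8.17), as did USP12 (6.33, 6.31, 6.32 and 6.43). Members with an adjusted p under 0.05 were then 2 lower in each. Samples with the same replicate number deviated together only weakly (correlation across genes 0.152), and no label pairs them. The block turned PTGES to 0.13, and apart from ALOX5 and ALOX15 it moved no member across the threshold.

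Leaving out each library gave log2 fold changes from -0.45 to 1.55 for PTGS1, -0.92 to -0.61 for PTGS2, -0.69 to 0.97 for PTGES, -1.22 to -0.40 for PTGES2, -0.032 to 0.98 for PTGES3, 0.52 to 0.94 for HPGD, -3.92 to -2.01 for ALOX5, -8.27 to -7.99 for ALOX15 and 5.85 to 7.04 for USP12, which passed in each of the 4. Without control replicate 1, PTGES3 stood at -0.032 and PTGES at 0.97, and PTGS2, ALOX5 and ALOX15 were lower and PTGES and HPGD higher at an adjusted p under 0.05. Without control replicate 2, PTGS1 stood at -0.45, and PTGES, PTGES2, ALOX5 and ALOX15 were lower and PTGES3 higher. Members called thus ranged from 0 to 4 lower and 0 to 2 higher, other pathway genes from 0 to 6 lower and 0 to 3 higher, and all genes from 21 to 2542 lower and 15 to 2475 higher. By the unadjusted criterion they ranged from 0 to 6 lower and 0 to 3 higher among other pathway genes (5 and 0 with all libraries), and from 274 to 2049 lower and 171 to 2371 higher among all genes (671 and 445 with all libraries).

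With at least 10 counts in every library, 1 member and 3 other pathway genes met the criterion of lower levels and 1 other pathway gene that of higher levels, as 1 did without a filter. Over all genes, an adjusted p under 0.05 was reached by 361 lower and 167 higher without a filter, 273 and 133 by DESeq2, 262 and 167 by the exact test, and 251 and 153 under the replicate block, against 0 and 0. Without a filter, 1173 lower and 688 higher genes met the criterion. The cause of these differences was not tested. PTGS1, PTGER4 and ALOX15 rest on at most 37 counts in a library.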
